A study of Mus musculus with 281 samples.

Results

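The corticotropin-releasing hormone (CRH) system was described from 7 genes of the 47752 in the gene table. They are the ligands *Crh*, *Ucn*, *Ucn2* and *Ucn3*, the receptors *Crhr1* and *Crhr2*, and the binding protein *Crhbp*. The genes were listed by name, and *Crhbp* and *Crhr1* were put forward because their RNA levels lead different groups of cells, so those levels are given as a description, with no test. The values are from single cells of the mouse stria vascularis, the ion-transporting epithelium of the lateral cochlear wall, each picked with a micropipette and profiled with Smart-Seq2. Cells came from *Slc26a4*+/+ mice of the 129S6 strain (postnatal days 22 to 42), with 40 *Slc26a4*+/- cells (days 26 to 33) and 69 *Slc26a4*-/- cells (days 24 to 44) beside them. *Slc26a4* encodes pendrin, the anion exchanger of spindle cells (SCs) and root cells (RCs), and the mice without it are deaf. The methods give male mice on the 129S6 background and several animals per genotype, but no label ties a cell to a mouse. Each genotype therefore counted as 1 sample, with no test between genotypes.

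CRH is the peptide with which the hypothalamus drives the release of adrenocorticotropin from the pituitary, and through it the release of glucocorticoids from the adrenal cortex. The urocortins are related peptides. CRHR1 and CRHR2 are class B1 G protein-coupled receptors that mainly raise cyclic AMP through the stimulatory G protein. CRH and urocortin 1 bind CRHR1 with high affinity, whereas urocortins 2 and 3 favour CRHR2. The binding protein is a secreted glycoprotein that holds CRH and urocortin 1 away from their receptors. A local CRH system that does not pass through the pituitary is known in the cochlea.

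Unbiased clustering with the 7 genes left out gave 7 clusters, which made 6 groups of cells because 2 clusters were IMC-like. The IMC-like cells (intermediate cells) numbered 69 *Slc26a4*+/+, 23 *Slc26a4*+/- and 39 *Slc26a4*-/- cells. Over all genotypes 36 cells were RC-like, 34 were SC-like and 21 were MC-like (marginal cells). A group of 42 cells with low depth and no leading cell type was left unnamed and is called the mixed cells here. A further 17 cells were led by *Vmo1*, *Slc26a7* and *Rnase1* and are called the *Vmo1*/*Slc26a7* cells. *Vmo1*, *Slc26a7* and *Otx2* are known from the epithelium of Reissner's membrane, the sheet next to the stria, but these genes were known to lead the group when the marker list was made, so no cell type was given. The summed CPM (a gene's share of the counts of its cell, scaled to 1000000) of the 8 marginal cell markers ranged from 6312 to 23495 in these cells, and 7 of the 8 reached a mean of 10 CPM. So did 6 of 7 spindle, 6 of 7 root, 6 of 11 intermediate, 4 of 5 basal cell and 5 of 5 fibrocyte markers, with median sums of 2445, 869, 887, 566 and 22.3 CPM. Among cells of other tissues, 3 of 7 erythroid, 2 of 5 endothelial, 2 of 4 Schwann cell and 1 of 5 B lymphoid markers reached it, and none of the macrophage, myeloid, pericyte, neuron or hair cell markers did. In RC-like cells the 7 root cell markers all reached it, with a median sum of 18088 CPM, as did 8 of 8 marginal, 8 of 11 intermediate, 5 of 7 spindle, 4 of 5 basal cell and 5 of 5 fibrocyte markers, with median sums of 395, 779, 949, 920 and 609 CPM. The part of other cells' RNA in these groups was not tested.

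The cells held between 1848 and 7932729 estimated counts (median 1312950), and 20 *Slc26a4*+/+ cells had fewer than 100000 counts. Profiles carried 4 run dates, called batches. The *Slc26a4*+/+ cells divided into 52, 26, 75 and 19 over batches 1 to 4. Of the *Slc26a4*-/- cells 1 was in batch 1, 46 were in batch 2 and 22 in batch 4, which also had every *Slc26a4*+/- cell. The median of *Slc26a4* RNA in *Slc26a4*+/+, *Slc26a4*+/- and *Slc26a4*-/- cells was 33.5, 1.18 and 1042 CPM in RC-like, 692.5, 511.4 and 24.5 CPM in SC-like and 361.8, 1.71 and 0 CPM in *Vmo1*/*Slc26a7* cells. It was thus lower in *Slc26a4*-/- cells of the latter groups (9 and 2 cells) and higher in RC-like cells (means 989, 568 and 1222 CPM), so directions between genotypes rest on the labels.

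Of the 7 genes, *Crhbp* and *Crhr1* reached a mean of 10 CPM in the *Slc26a4*+/+ cells of at least 1 cell group, against 26.5% of all genes in the table. The next highest was *Ucn2*, with a mean of 1.10 CPM in RC-like cells. *Crhbp* and *Crhr1* each have a single transcript among those quantified, of 1686 and 2460 bases, so that their gene and transcript counts were the same. In GRCm38, *Crhbp* is at chr13:95431371-95444924 (minus strand) and *Crhr1* at chr11:104132855-104175523 (plus strand). The sequence around the RefSeq start of each, from 250 bases before it to 50 after it, is shown for these 2 genes, because the windows differ in base composition. The gene positions above are of GENCODE M21, whose starts differ from the RefSeq starts, and the *Crhr1* window ends before its GENCODE start. Positions within a window are counted from the RefSeq start. The *Crhbp* window is chr13:95444782-95445081, minus strand, and the *Crhr1* window chr11:104132531-104132830, plus strand, both of GRCm38.p6, written 5′ to 3′ with TATAAA in capitals.
Crhbp: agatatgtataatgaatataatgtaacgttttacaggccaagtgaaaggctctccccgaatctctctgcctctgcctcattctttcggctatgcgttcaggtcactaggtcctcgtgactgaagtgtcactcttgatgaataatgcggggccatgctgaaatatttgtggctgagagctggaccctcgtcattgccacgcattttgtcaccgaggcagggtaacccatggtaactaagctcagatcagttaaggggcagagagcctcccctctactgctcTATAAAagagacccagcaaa
Crhr1: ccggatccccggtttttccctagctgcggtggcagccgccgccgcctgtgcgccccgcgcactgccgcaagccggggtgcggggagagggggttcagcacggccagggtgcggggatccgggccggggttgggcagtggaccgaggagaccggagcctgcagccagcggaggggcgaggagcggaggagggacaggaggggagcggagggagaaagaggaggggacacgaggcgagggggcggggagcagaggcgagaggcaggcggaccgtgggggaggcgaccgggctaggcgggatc
The *Crhr1* window has a GC content of 75% and 31 CpG dinucleotides, and 96.1% of the 32851 RefSeq promoter windows of this length have a lower GC content. The *Crhbp* window has a GC content of 48% with 9 CpG dinucleotides, near the median of all windows of 52.7% and 7. TATAAA or its reverse complement TTTATA stands in 13.6% of all windows. It is in the *Crhbp* window at base 31 after the start and in that of *Crhr2* at base 39 before it. The palindrome TGACGTCA, the cAMP response element, is in 1.79% of windows and among the 5 matched genes only in that of *Ucn*, at base 44 before the start. TAATCC, the core bound by OTX2, or its reverse complement GGATTA is in 7.06% of windows and in none of those 5. *Crh* and *Ucn2* had no entry.

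*Crhbp* was among the most abundant RNAs of the *Vmo1*/*Slc26a7* cells and had far lower means in every other group. Over the 11 *Slc26a4*+/+ cells of this group its mean was 12924 CPM (SD over cells 8956), 304-fold that of the mixed cells, the next group, and 8.21 higher on the log2(CPM + 1) scale. Per unit of length it stood at rank 5 of 32386 genes in these cells, with a mean of 11014 TPM (a level per transcript length, scaled to a fixed sum). The area under the ROC curve over *Slc26a4*+/+ cells was 0.985. Of 12645 genes with a mean of 10 CPM in some group, 6 had a larger log2 difference between their highest and next group. All these values describe a gene chosen for its pattern.

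The values were spread over the cells of the group as follows. In *Slc26a4*+/+ cells *Crhbp* was lowest at 23.1 CPM, with a median of 14356 CPM and a highest value of 29256 CPM. The 4 *Slc26a4*+/- cells had 24337, 23189, 17153 and 11032 CPM. The 2 *Slc26a4*-/- cells had 8969 CPM and 0 CPM. Thus 14 of the 17 cells held at least 1413 counts of *Crhbp*, and the other 3 lay far below them. These were a *Slc26a4*+/+ cell with 75 counts, a *Slc26a4*+/+ cell with 5 counts and a *Slc26a4*-/- cell with none among 403492 counts in all. The cell with 75 counts had 10677 CPM of *Vmo1* and 6060 CPM of *Slc26a7*, well within the range of the others. The cell with 5 counts had 8962 CPM of *Vmo1* but 37 CPM of *Slc26a7*, whereas the cell with none had 528 CPM of *Vmo1* and 5866 CPM of *Slc26a7*. Low *Crhbp* therefore stood beside a low value of another leading gene in 2 of these 3 cells, as the plot of the 17 cells shows.

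**Figure D1:**
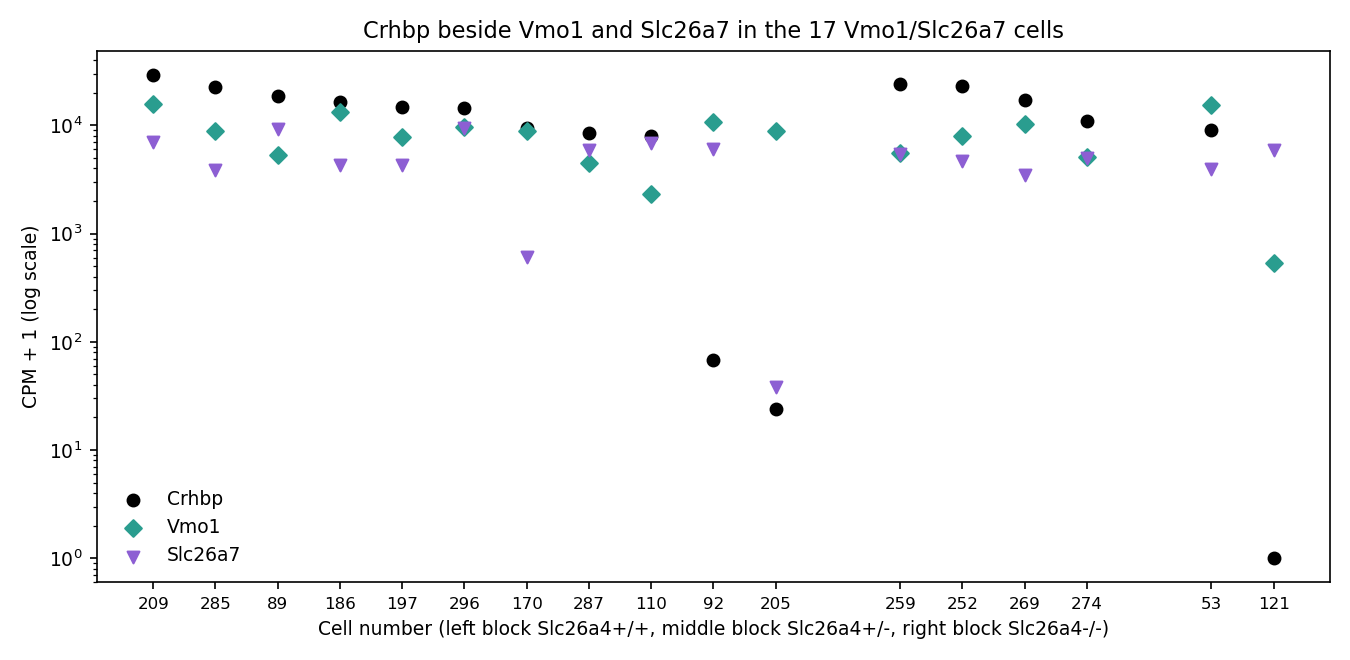
*Crhbp* (circles), *Vmo1* (diamonds) and *Slc26a7* (triangles) in each of the 17 *Vmo1*/*Slc26a7* cells, as CPM + 1 on a log axis, with 1 column per cell and the genotypes in 3 blocks. In 14 cells *Crhbp* is between 7925 and 29256 CPM, and in the other 3 it is at 66.7, 23.1 and 0 CPM.

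The cells with *Crhbp* were not of 1 collection. The 15 cells with at least 10 counts came from all 4 batches, all 3 genotypes, 14 of the 30 days of collection and ages from day 23 to day 42. Their counts ranged from 75 to 64842, with a median of 19006, and the cell with the most held 15.9% of all *Crhbp* counts of the group. Mean levels of *Slc26a4*+/+ cells by batch were 8844 CPM (3 cells), 14008 CPM (5 cells) and 15196 CPM (3 cells) in batches 2, 3 and 4, and batch 1 had no such *Slc26a4*+/+ cell. At least 10 counts were found in 10 of 11 *Slc26a4*+/+ cells, or 90.9% (95% Clopper-Pearson interval 58.7 to 99.8). After each cell was thinned to 100000 counts, all 11 still held a count of *Crhbp*. All intervals given allow for counting error alone and leave out the spread between mice. Reads without molecular identifiers can be copies of 1 molecule, so intervals on counts can be too narrow for molecules. With 4 *Slc26a4*+/- and 2 *Slc26a4*-/- cells, the group was too small for a ratio between genotypes.

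**Figure D2:**
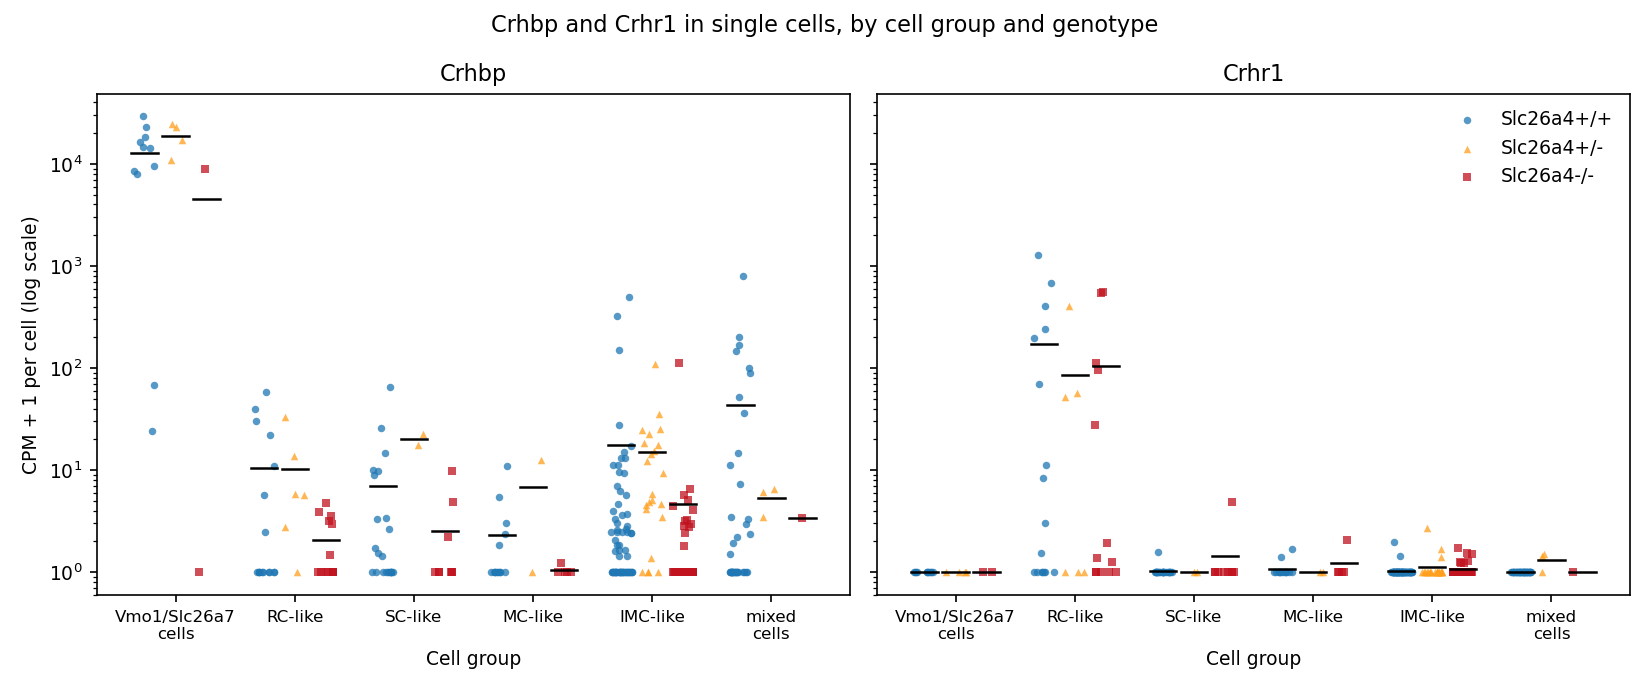
*Crhbp* (left) and *Crhr1* (right) as CPM + 1 on a log axis, 1 point per cell, by cell group and genotype, with a bar at the mean. *Crhbp* has means of 12924, 18928 and 4484 CPM in the *Vmo1*/*Slc26a7* cells of the 3 genotypes, and *Crhr1* is above 10 CPM in RC-like cells alone.

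Outside this group *Crhbp* counts were low but widespread, and they moved with the day of collection. Mean levels in *Slc26a4*+/+ cells were 42.5 CPM in mixed cells, 16.6 CPM in IMC-like, 9.53 CPM in RC-like, 5.91 CPM in SC-like and 1.34 CPM in MC-like cells. The differences between mixed, IMC-like, RC-like and SC-like cells in this order were smaller than their SD between batches. The pooled difference between SC-like and MC-like cells was 1.56 on the log2 scale, against an SD of 0.97 over 3 batches. It included SC-like cells of batch 4 (15.8 CPM), which had no *Slc26a4*+/+ MC-like cell. In batches 1 to 3 the means were 2.66, 0 and 5.38 CPM in SC-like cells. In MC-like cells they were 2.24, 0.501 and 1.53 CPM, so the direction differed between batches. The medians were 0 to 0.634 CPM in all 5 groups. Among all cells outside the *Vmo1*/*Slc26a7* group 56 held at least 10 counts of *Crhbp* and 5 held more than 100. The highest level, 791 CPM, was 22 counts in a mixed cell of 27796 counts, and the most counts were 419, in an IMC-like cell.

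The name of each profile holds a number that reads as a day of collection, and 15 of the 30 days had a *Vmo1*/*Slc26a7* cell. On days with such a cell, 74.8% of the other cells (92 cells) had at least 1 *Crhbp* count (95% interval 66.2 to 82.2). On days without one, 29.8% (42 cells) did (22.4 to 38.1). Median depths were 1300198 and 1380694 counts. The numbers with and without such a cell on the day were 17 of 34 and 3 of 34 cells in batch 2, 35 of 48 and 8 of 22 in batch 3, and 40 of 41 and 16 of 33 in batch 4. In batch 1, 15 of 52 cells held a count. Batch 1 offered no comparison, because its single day with a *Vmo1*/*Slc26a7* cell had no other cell. *Vmo1* and *Slc26a7* moved in the same way. A count of *Vmo1* was found in 90 cells of the days with such a cell and 65 of the other days, and a count of *Slc26a7* in 79 and 47. In batch 4 the median of *Crhbp* was 12.2 CPM on such days and 0 CPM on the others. All *Slc26a4*-/- cells of batch 4 came from the other days, so genotype and day are mixed in the comparisons of this batch. The 5 cells with more than 100 counts were all collected on days with a *Vmo1*/*Slc26a7* cell. There were exceptions. On 1 day of batch 1, all 8 cells held *Crhbp*, with a median of 9.5 counts, on 1 day of batch 3 all 4 cells held it, at 3 counts at most, and the single cell of a day of batch 4 held 43 counts, although none of these days had a *Vmo1*/*Slc26a7* cell. Whether these low counts were made in the cells that hold them was not tested.

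**Figure D3:**
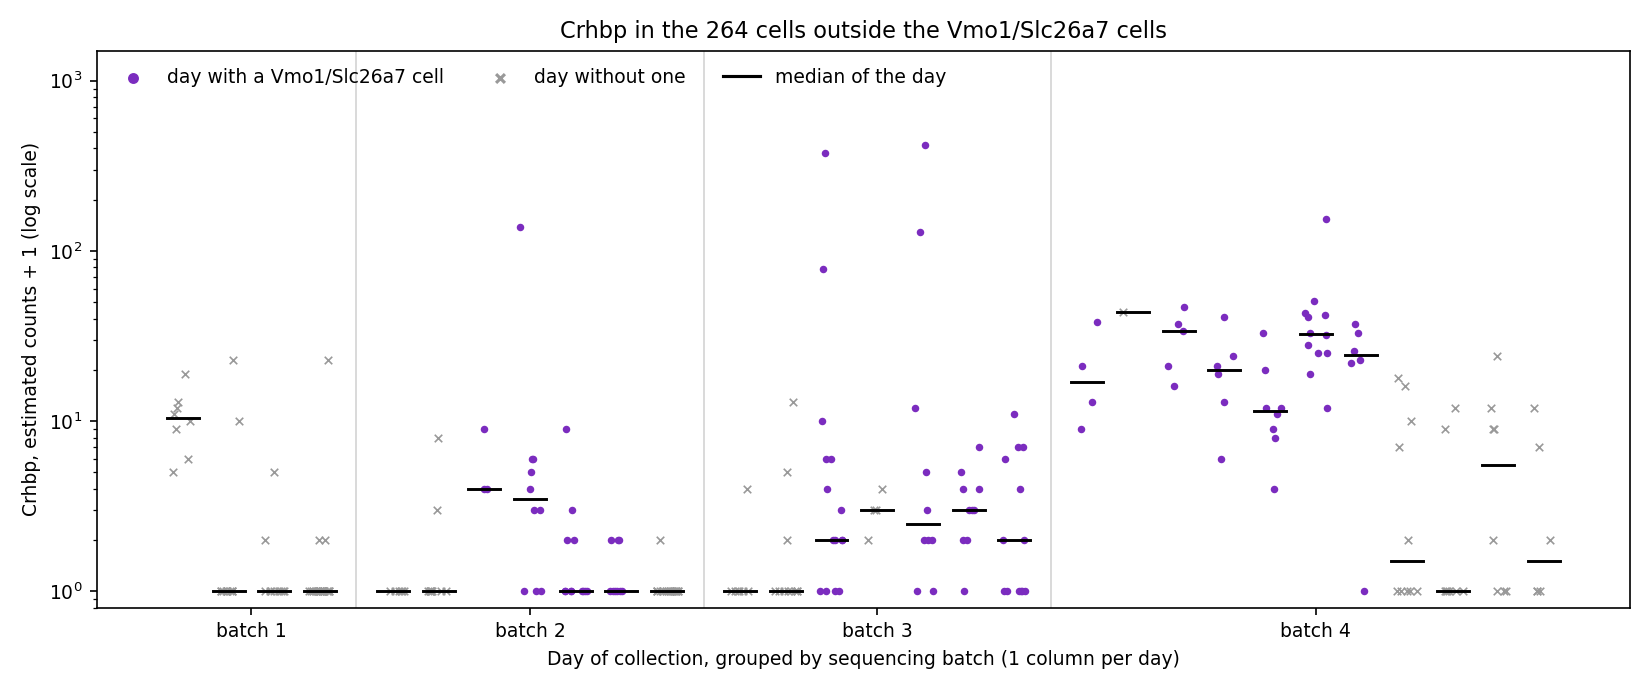
*Crhbp* estimated counts + 1 on a log axis in the cells outside the *Vmo1*/*Slc26a7* group, with 1 column per day of collection, grouped by batch, and a bar at the median of the day. Days with a *Vmo1*/*Slc26a7* cell (filled points) have a count in 74.8% of the other cells, and days without one (crosses) in 29.8%.

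*Crhr1* was found in RC-like cells, named after the root cells, whose processes reach from the outer sulcus into the spiral ligament. The name rests on marker RNA, and the place of these cells in the tissue was not tested. Over 17 *Slc26a4*+/+ RC-like cells its mean was 169.6 CPM (SD over cells 342), and 98.4 TPM per unit of length, at rank 2052 of 32386 genes. In every other group the mean over *Slc26a4*+/+ cells was at most 0.0778 CPM, and no cell of any genotype outside the RC-like group held more than 2 counts. The log2(CPM + 1) difference from MC-like cells, the next group, was 7.31, with an SD of 4.04 over the 3 batches that held both groups. Its lowest batch value was 0, in batch 2, where the single *Slc26a4*+/+ RC-like cell had no count. RC-like means over *Slc26a4*+/+ cells in batches 1 to 4 were 118.9, 0, 171.5 and 247.2 CPM (6, 1, 4 and 6 cells). No *Crhr1* count was found in the 17 *Vmo1*/*Slc26a7* cells, which allows a share of cells with a count of up to 17.6% by a floor of 3 cells (exact upper limit 19.5%), or in the 38 *Slc26a4*+/+ mixed cells. Counts outside RC-like cells were too few to order the other groups. RC-like cells held 99.6% of all 6011 *Crhr1* counts.

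Within RC-like cells *Crhr1* varied widely, with at least 10 counts in some cells and few or none in the others. Its lowest, median and highest values in *Slc26a4*+/+ cells were 0, 2.01 and 1279 CPM. In the 6 *Slc26a4*+/- cells the values were 400, 56.1, 50.7, 0, 0 and 0 CPM, and in the 13 *Slc26a4*-/- cells they ran from 0 to 559 CPM with a median of 0.382 CPM. At least 10 counts were found in 13 of 36 cells, or 36.1% (95% interval 20.8 to 53.8), namely 5 *Slc26a4*+/+, 3 *Slc26a4*+/- and 5 *Slc26a4*-/- cells. The cell just above this level had 11 counts and those just below it had 5. Those with 5 counts were at 68.6 CPM, in a cell of 72936 counts, and at 7.39 CPM. The lowest of the 13 cells was at 26.9 CPM, so the count level does not separate the cells by CPM. The 13 cells had 11 to 1501 counts and came from all 4 batches and 11 days of collection. They were taken at days 22 to 34, among RC-like cells of days 22 to 40. Their median depth was 1300198 counts, against 1796498 counts in the other 23 cells, although the shallowest RC-like cells (72936 and 291609 counts) were among the 23. At 1 count or more, and so at the level also met outside the group, 58.8% of *Slc26a4*+/+ RC-like cells (32.9 to 81.6) held *Crhr1*, and after thinning to 100000 counts 43.8% did (19.8 to 70.1). At 1 count, 2 of 69 *Slc26a4*+/+ IMC-like cells, or 2.90%, were positive, at a median depth of the group of 1349586 counts. *Epyc*, which encodes the proteoglycan epiphycan and leads RC-like cells, had at least 10 counts in all 36. On days with a cell of 10 *Crhr1* counts, 12 of the 88 cells outside the RC-like group, or 13.6% (95% interval 7.25 to 22.6), held a *Crhr1* count. On other days 7 cells, or 4.46% (1.81 to 8.97), did, and all held 2 counts at most. These days were not compared by depth or within batches.

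*Crhr1* and *Slc26a4* were mostly found in different RC-like cells. Both genes were left out of the clustering. Of the 13 cells with at least 10 *Crhr1* counts, 2 also had 10 of *Slc26a4*, namely a *Slc26a4*+/+ cell with 80 and 497 counts and a *Slc26a4*-/- cell with 111.9 and 1179 CPM of the 2 genes. The other 11 had 0 to 4 counts of *Slc26a4*. Of the 23 cells with fewer than 10 *Crhr1* counts, 16 had at least 10 of *Slc26a4* and 7 had neither. By genotype, both genes were found in 1 of 17 *Slc26a4*+/+, 0 of 6 *Slc26a4*+/- and 1 of 13 *Slc26a4*-/- cells. *Slc26a4* alone was found in 8, 2 and 6 of them, and *Crhr1* alone in 4, 3 and 4. At a level of 50 counts the 36 cells divided into 2 with both, 10 with *Crhr1* alone, 15 with *Slc26a4* alone and 9 with neither. Across the 16 *Slc26a4*+/+ RC-like cells of at least 100000 counts, Pearson's r of the log2(CPM + 1) values was -0.55, a description over cells that share days and batches. *Lgr5*, another root cell marker and chosen here after its values were seen, had at least 10 counts in 3 of the 13 cells with *Crhr1* and in 12 of the other 23. Whether the RC-like cells with and without *Crhr1* are of the same cell type was not tested.

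**Figure D4:**
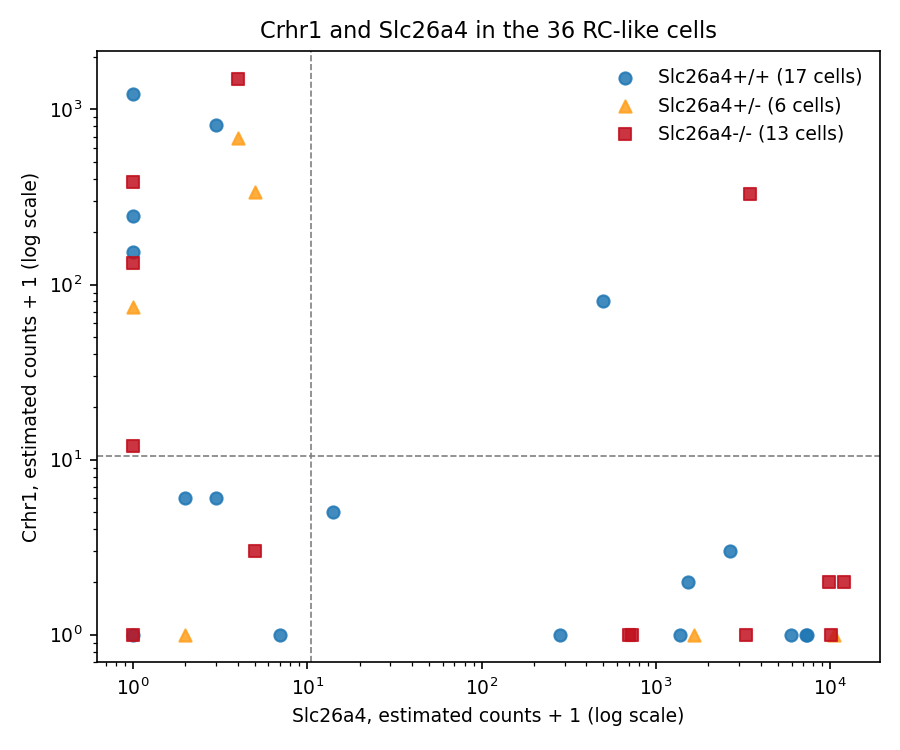
Estimated counts + 1 of *Crhr1* against *Slc26a4* in the 36 RC-like cells, both on log axes, with genotypes by colour and shape and dashed lines at 10 counts. Most cells lie along either axis, and 2 of the 36 are above the lines in both genes.

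The other 5 genes were at or near 0. *Crhr2*, *Ucn* and *Ucn3* had no count in any cell, as did 56.9% of all genes in the table. By a floor of 3 cells, a count of 0 allows a share of up to 1.07% of cells with a count, and up to 8.33% of the 36 RC-like and 17.6% of the 17 *Vmo1*/*Slc26a7* cells, where the exact upper limits are 9.74% and 19.5%. The pooled level it allows is 0.00673 CPM. *Crhr2*, the receptor preferred by urocortins 2 and 3, has 7 transcripts of 425 to 2924 bases among those quantified, and all were at 0. *Crh*, the ligand that names the system, had 4 counts in 1 mixed *Slc26a4*+/+ cell and none elsewhere. *Ucn2* had 82 counts in 12 cells. Of these, 36 were in a mixed *Slc26a4*+/- cell and 29 in an RC-like *Slc26a4*+/+ cell, while the remaining cells had 5 or fewer. That RC-like cell also had 1230 *Crhr1* counts, the most of any *Slc26a4*+/+ cell. It was the only cell with at least 10 counts of both a ligand and a receptor of the system. No ligand reached a mean of 10 CPM in any group, and the CRH or urocortin protein of the tissue was not measured.

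Levels between genotypes were compared where each genotype had at least 5 cells of a group and either mean reached 10 CPM. That left *Crhr1* in RC-like and *Crhbp* in IMC-like cells. The mean of *Crhr1* over RC-like cells was 102.5 CPM in 13 *Slc26a4*-/- cells and 84.5 CPM in 6 *Slc26a4*+/- cells, against 169.6 CPM in 17 *Slc26a4*+/+ cells, and the values of the 3 genotypes overlapped. The log2 ratios were -0.72 and -0.996 (the latter just short of the size of 1 used as a call), beside medians over all genes of -0.11 and -0.12. Of all genes in these 2 comparisons, 50.2% and 57.4% passed a log2 ratio of 1 in size, so such ratios are common among so few cells. The pooled counts were 2537, 1092 and 2358 in *Slc26a4*+/+, *Slc26a4*+/- and *Slc26a4*-/- cells, with exact 95% Poisson intervals of 109.9 to 118.9, 43.9 to 49.5 and 96.9 to 105.1 CPM. The shares of cells with 10 counts were 29.4% (10.3 to 56), 50% (11.8 to 88.2) and 38.5% (13.9 to 68.4). The intervals of the shares cover the counting of cells. Those of the pooled counts cover the counting of reads and leave out the spread between cells. Of the 2537 counts, 1230 were in 1 *Slc26a4*+/+ cell and 812 in another. None of these intervals compares genotypes. The *Slc26a4*+/+ cells had the highest mean and the lowest share. Within batch 4 the ratios were -1.40 and -1.54. These directions rested on 1 *Slc26a4*+/+ cell of batch 4, at 1279 CPM. Without it, a setting added once the values were known, the *Slc26a4*+/+ mean was 100.3 CPM and the ratios were 0.03 and -0.24, and within batch 4 the mean fell from 247.2 to 41 CPM and both ratios turned, to 1.17 and 1.03. Within batch 2 the *Slc26a4*-/- ratio was 6.84, set by a single *Slc26a4*+/+ cell with no count.

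*Crhbp* in IMC-like cells had a mean of 16.6 CPM in 69 *Slc26a4*+/+, 13.9 CPM in 23 *Slc26a4*+/- and 3.68 CPM in 39 *Slc26a4*-/- cells. The log2 ratio was -1.91 for *Slc26a4*-/-, past the size of 1 that 28.8% of genes passed there, and -0.24 for *Slc26a4*+/-, where 32.2% of genes passed it. The median over all genes was -0.14 and -0.12. Medians over cells were in another order, at 0.634, 4.79 and 0 CPM. Within batches the *Slc26a4*-/- ratio took both signs, 1.59 in batch 2 and -3.75 in batch 4. The *Slc26a4*+/- ratio within batch 4 was -1.06. On days with a *Vmo1*/*Slc26a7* cell, 31 of 39 *Slc26a4*+/+, 14 of 15 *Slc26a4*+/- and 7 of 13 *Slc26a4*-/- IMC-like cells held a count of *Crhbp*, and on the other days 7 of 30, 5 of 8 and 6 of 26 did. In batch 4, all 7 *Slc26a4*+/+ and none of the 12 *Slc26a4*-/- IMC-like cells came from days with such a cell, so genotype and day cannot be told apart there. On the 5 days of batch 2 that held IMC-like cells of both *Slc26a4*+/+ and *Slc26a4*-/- mice, the means were 0.983 CPM (11 cells) and 7.33 CPM (17 cells), a ratio of 2.07, with the opposite sign to that over all days. By day it ranged from -0.67 to 3.95, the highest on a day with 3 *Slc26a4*-/- cells and 1 *Slc26a4*+/+ cell. The 3 *Slc26a4*-/- cells of that day had 110.6, 4.07 and 1.42 CPM. The ratios of 2.07 and of batch 2 (1.59) rested largely on the cell at 110.6 CPM. On the other days the ratio was between -0.67 and 0.69. The median of the 27 *Slc26a4*-/- IMC-like cells of batch 2 was 0 CPM. Without days that had a *Vmo1*/*Slc26a7* cell, also a setting added once the values were known, the ratios were -0.13 and 0.52.

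The genes whose pattern was most like that of *Crhbp* or *Crhr1* were sought over the *Slc26a4*+/+ cells of at least 100000 counts, by Pearson's r of log2(CPM + 1). The cells share days, batches and cell groups, so the values are a description. Over 9739 genes, the most like *Crhbp* were *Slc26a7* (0.86), an anion transporter of the pendrin family, AC244694.1 (0.81), the collagen gene *Col8a1* (0.79), *Vmo1* (0.79) and the Wnt modulator *Dkk2* (0.66). Their means in *Vmo1*/*Slc26a7* cells were 5237, 245.7, 1187, 8714 and 1143 CPM in this order, and in their next highest groups 13.5, 0.289, 11.7, 98.9 and 149.3 CPM. Within the 11 *Slc26a4*+/+ cells of that group the value for *Col8a1* was 0.93, the highest of the 5, whereas that for *Vmo1* was -0.08. The most like *Crhr1* were *Itih5* (0.63), which encodes a heavy chain that binds hyaluronan, *Ush1c* (0.59), which encodes the scaffold protein harmonin, the keratin gene *Krt19* (0.56), *Epyc* (0.52) and the carboxylesterase gene *Ces1d* (0.51). Their means in RC-like cells were 1204, 316.5, 148.1, 8023 and 1368 CPM, against 14.4, 66.8, 72.7, 56.3 and 115.1 CPM in their next highest groups. Within the 16 *Slc26a4*+/+ RC-like cells, *Ush1c* had the highest value, 0.66, and *Epyc* the lowest, 0.13.

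Genes that act around the CRH system were taken from 6 lists, with 70 genes in the table. Of these, 38 reached a mean of 10 CPM in at least 1 group, 24 of them in RC-like and 21 in *Vmo1*/*Slc26a7* cells, where 18.8% and 17.8% of all genes did. In the cyclic AMP pathway, through which CRHR1 signals, 12 of 21 genes reached it in RC-like cells. *Gnas*, the stimulatory G protein subunit, had a mean of 2468 CPM there and from 700 to 2552 CPM in the other groups. *Prkar1a*, a regulatory subunit of protein kinase A, was at 597 CPM in RC-like cells and from 350 to 625 CPM elsewhere. *Rapgef3*, an exchange factor that cyclic AMP activates, was highest in IMC-like cells (727 CPM) and low in RC-like cells (25.4 CPM). Of the 10 adenylyl cyclases, chosen to be named after their values were seen, *Adcy6* (138.8 CPM), *Adcy3* (47 CPM) and *Adcy1* (10.1 CPM) reached the level in RC-like cells, and *Adcy1* had at least 10 counts in 1 of the 17 cells. In the list of receptor desensitization, 4 of 7 genes reached it in RC-like cells. The arrestin genes *Arrb1* and *Arrb2* were at 48.1 and 19.5 CPM there, and the kinase *Adrbk1* was at 9.93 CPM, just short. The kinases *Adrbk2* and *Grk4*, named after their values were seen, reached it at 53.6 and 19.5 CPM.

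**Figure D5:**
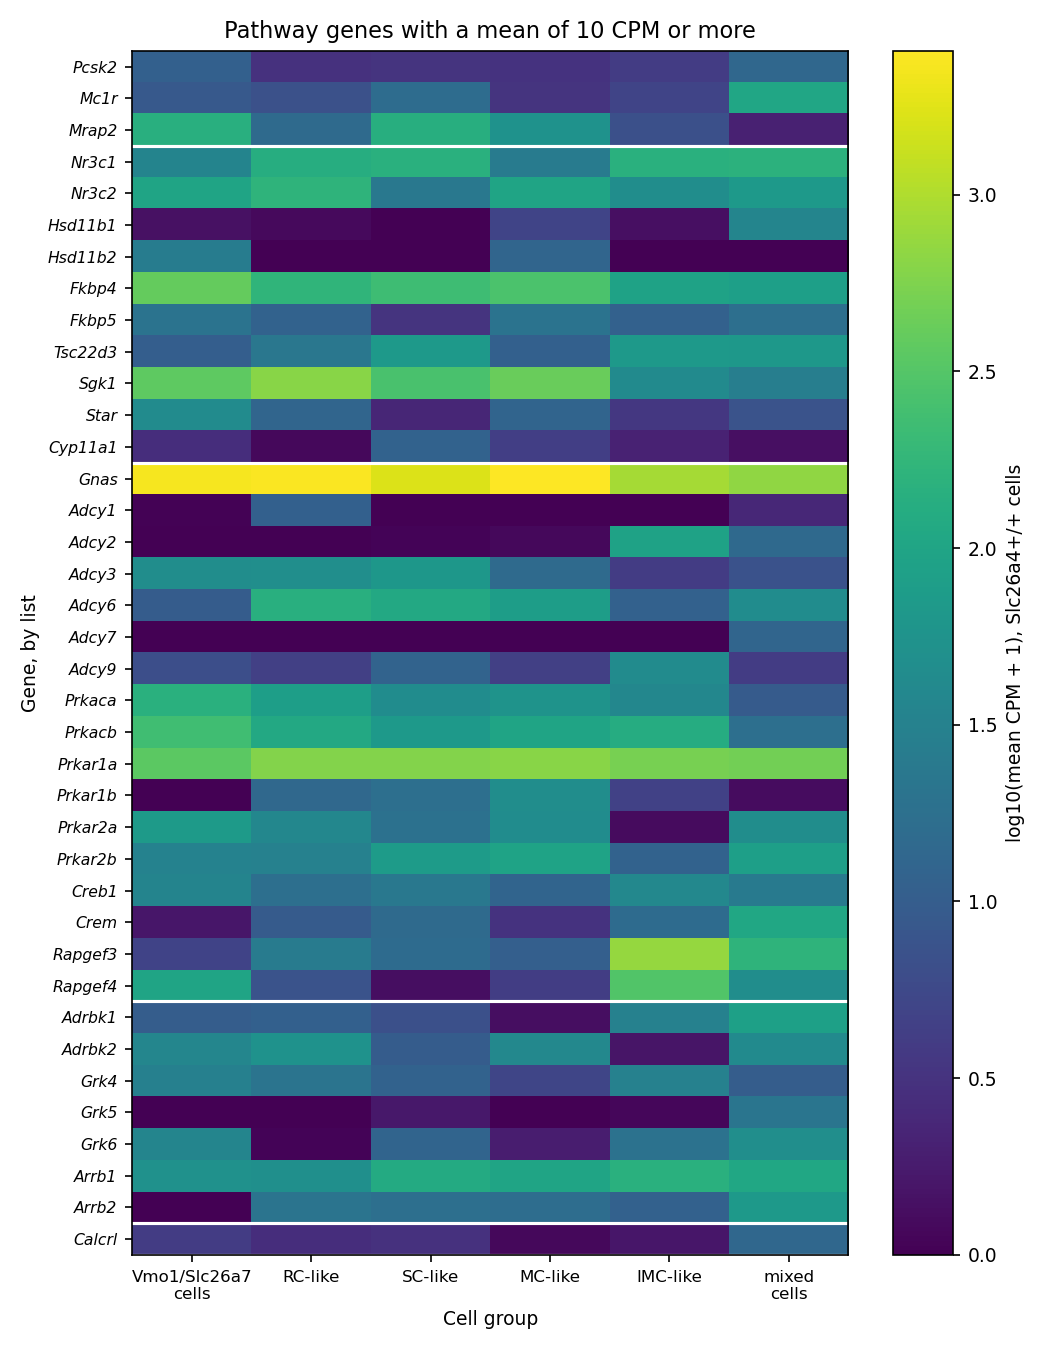
Mean level over *Slc26a4*+/+ cells, as log10(CPM + 1), of the 38 pathway genes that reached a mean of 10 CPM in at least 1 group, by cell group (columns) and list (white lines). *Gnas* is highest in every group and reaches 2552 CPM in MC-like cells.

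Genes downstream in the hormonal axis are read against the 26.5% of all genes that reached 10 CPM in some group. In the list of corticosteroid receptors and steroid enzymes 10 of 15 genes reached 10 CPM in some group. *Sgk1*, a kinase that corticosteroids induce, was highest in RC-like cells (628 CPM) and at 361 CPM in *Vmo1*/*Slc26a7* cells. The mineralocorticoid receptor gene *Nr3c2* was at 163.4 and 97.7 CPM in these groups. The glucocorticoid receptor gene *Nr3c1*, named after its values were seen, was at 130.2 and 33.4 CPM. *Fkbp4*, a co-chaperone of steroid receptors, was highest in *Vmo1*/*Slc26a7* cells at 403 CPM. Among 10 proopiomelanocortin and melanocortin genes 3 reached the level. *Mrap2*, an accessory protein of melanocortin receptors, was at 141.3 CPM in *Vmo1*/*Slc26a7* cells and 136.9 CPM in SC-like cells. *Mc1r*, the melanocortin receptor of pigment cells, was at 101.7 CPM in mixed cells and 3.93 CPM in IMC-like cells, and the prohormone convertase *Pcsk2* at 12.8 CPM in mixed cells. *Pomc*, the adrenocorticotropin precursor, had 74 counts over all cells. Of 13 other class B1 receptors only *Calcrl* reached the level, at 12.6 CPM in mixed cells, with *Vipr2* at 7.63 CPM in IMC-like and *Adcyap1r1* at 3.63 CPM in RC-like cells. In the vasopressin list of 4 genes, *Avpr1b* had 8 counts in all, and *Avp* and *Avpr1a* were at 0.

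Between genotypes, 26 of the list genes could be compared in RC-like cells. In *Slc26a4*-/- cells 1 was higher and 11 were lower by a log2 ratio of 1, where 21.7% and 28.5% of all genes were. In *Slc26a4*+/- cells 4 of 26 were higher and 13 lower, where 24.8% and 32.5% of all genes were. The cyclic AMP list had medians of -1.22 over 13 genes in *Slc26a4*-/- and -1.95 over 14 genes in *Slc26a4*+/- RC-like cells, where the medians over all genes were -0.11 and -0.12. In IMC-like cells the medians of this list were -0.10 and -0.14, where those over all genes were -0.14 and -0.12. Its most abundant members in RC-like cells had ratios of -0.18 and -0.22 for *Gnas* and -0.23 and 0.37 for *Prkar1a*. Of 17 *Slc26a4*+/+ RC-like cells, 16 had at least 10 counts of *Gnas* and 15 of *Prkar1a*. For *Adcy3*, *Rapgef3* and *Adcy1* the numbers were 3, 2 and 1. How far the ratios of such genes rest on the few *Slc26a4*+/+ cells that hold them was not tested. Medians of the list were not taken within batches. In IMC-like cells 2 of 25 list genes were higher and 6 lower in *Slc26a4*-/- cells, against 11.1% and 17.7% of all genes, and 3 of 26 were higher and 10 lower in *Slc26a4*+/- cells, against 11.5% and 20.8%. The corticosteroid list had medians of -0.72 and 0.79 in RC-like and -1.18 and -0.96 in IMC-like cells, over 6 or 7 genes. *Nr3c2* had log2 ratios of -2.55 and -1.87 in RC-like and -2.32 and -1.15 in IMC-like cells of *Slc26a4*-/- and *Slc26a4*+/- mice. In the same order the ratios of *Sgk1* were -0.13, 0.79, 0.20 and -0.06, and those of *Fkbp4* were 0.85, 1.29, -0.04 and 0.26. At least 10 counts of *Nr3c2*, *Sgk1* and *Fkbp4* were found in 5, 14 and 10 of the 17 *Slc26a4*+/+ RC-like cells. These ratios were not taken within batches. Both ratios of a cell group share their *Slc26a4*+/+ cells.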

How the data were processed

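Reads were assigned by the authors to GRCm38 mouse transcripts with Kallisto. They deposited a gene table of estimated counts, converted with a script of their own, and TPM per transcript. The version is not given in the sources used here. In the gene table, 17 columns belonged to no sample studied here and were not used. GENCODE M21 tied transcripts to genes, and TPM was summed per gene. Counts were scaled to CPM. Cells were clustered with Seurat 5.3.0 in R 4.3.3 (10 principal components, resolution 0.8) on 1890 variable genes, leaving out the 7 genes and those of the paper's text and tables. Clusters were named after a cell type when its markers gave the top score in 80% or more of the cells, 3 or more markers were detected and no other type led the top 10 genes. Cells were picked singly, so no doublet caller was run, and no cell was filtered. Mean CPM was compared with a pseudocount of 1 CPM, which understates the change of genes of low expression. Intervals are exact binomial or Poisson. Depth and precision are given with the values. Genes were named by a rule: the 7 genes, the 3 most abundant genes of each list, and the 5 genes most like *Crhbp* and *Crhr1* among those with a mean of 10 CPM and 10 counts in 10 cells. The ratio across genes was tested on simulated data. Alternatives were other gene sets, resolutions, filters, batches, pseudocounts, count levels and TPM. The members and lists were chosen with earlier results of these data known.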

Additional observations from a re-analysis of the deposited data

How the results depend on the processing

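Each genotype was 1 sample, so differences were not tested. Of the alternative values under 21 settings 84 were counted as the same as the values above and 33 as moved. A further 1 was past the size of a call with the opposite sign to a main value also past it. Not all of the 84 were close. Among them was the *Crhr1* ratio of *Slc26a4*-/- RC-like cells without batch 4 (-0.17, from -0.72). Another was the *Crhr1* share from 1 count after thinning (43.8%, from 29.4%). Some of those that moved changed sign as well, such as a ratio of -0.24 that became 1.43 and 1.58. *Crhr1* was highest in RC-like cells under each setting in which cell groups were compared. *Crhbp* was highest in the *Vmo1*/*Slc26a7* cells or, where the cells were clustered in another way, in 1 cluster left without a name. At a resolution of 0.4 the *Vmo1*/*Slc26a7* cells joined the SC-like cells, where the *Crhbp* difference was 6.69 and the share of cells 44.1%. The *Crhbp* difference of 8.21 became 9.18 without batch 1 and 10.3 as a mean of log2(CPM + 1). Its share of 90.9% became 100% without batch 3 (6 cells), from 1 count and after thinning. The *Crhr1* difference of 7.31 became 6.57 in TPM, 9.90 and 4.16 with pseudocounts of 0.1 and 10 CPM, 3.37 as a mean of log2(CPM + 1) and 6.55 without its highest cell, and its share of 29.4% became 58.8% from 1 count. The number of expressed genes, 2 of 7, became 3 at 1 CPM. The *Crhbp* ratio of *Slc26a4*-/- IMC-like cells (-1.91) became -0.52 with only the 7 genes left out of the clustering, -3.17 without batch 2, -0.73 without batch 3, -0.96 with a pseudocount of 10 CPM and -0.65 as a mean of log2(CPM + 1). In *Slc26a4*+/- cells (-0.24) it changed sign, to 0.79 with only the 7 genes left out, 0.95 without batch 3 and 1.43 as a mean of log2(CPM + 1). In alternatives chosen after seeing the data, the ratios were -0.13 and 0.52 without days that had a *Vmo1*/*Slc26a7* cell, and -0.94 and 1.58 without cells over 100 CPM. The *Slc26a4*-/- ratio was 2.07 on the 5 days with both genotypes, a value that rested largely on 1 cell at 110.6 CPM. Without the highest *Slc26a4*+/+ cell, also added, the *Crhr1* ratios of RC-like cells were 0.032 in *Slc26a4*-/- (from -0.72) and -0.24 in *Slc26a4*+/- cells. The *Crhr1* ratio of *Slc26a4*+/- RC-like cells (-0.996) passed -1 with only the 7 genes left out (-1.08), in cells of 100000 counts (-1.05), without batch 1 (-1.21), without batch 2 (-1.08) and with a pseudocount of 0.1 CPM (-1.0), and was -0.10 as a mean of log2(CPM + 1). Without batch 4 the *Slc26a4*+/- ratios could not be had, since all those cells are of that batch. The causes of these shifts were not tested. No paired analysis was possible because no replicate number is shared between genotypes, and the days that held both genotypes are given above instead.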
